A study of Mus musculus with 32 samples.

Results

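The 7 genes described here, Sycp1, Sycp2, Sycp3, Syce1, Syce2, Syce3 and Tex12, encode structural proteins of the synaptonemal complex. They were chosen by name and matched to their Ensembl identifiers through the GENCODE mouse annotation. All 7 were among the 20368 genes that reached a level of 3 TPM in at least 1 juvenile mouse. TPM is the abundance of a gene's transcripts per length, scaled to 1 fixed sum in each library, so that levels of different genes can be compared. The juvenile samples were germ cells of individual C57BL/6J male mice in the first wave of spermatogenesis, with 3 mice at 8 days post partum (dpp) and 5 mice at each of 10, 12, 14, 16 and 18 dpp. The study took 5 mice at 8 dpp too, but left out 2 whose cytology and RNA-seq data matched their age poorly. The 3 that remain at 8 dpp are thus not an unselected group. The 14 dpp mice carry the numbers 1, 2, 3, 6 and 7. The 4 adult samples were pachytene and diplotene spermatocytes of C57BL/6J males of 9 weeks, enriched by sedimentation at unit gravity, and each was a pool of 6 mice. The labels name no treatment and no altered gene in any group. The cells of both testes of a juvenile mouse were freed from the tubules with Liberase, so a juvenile library is a mixture of germ cell stages with whatever somatic cells came along, and the adult pools are an enriched fraction and not a pure one. By the study's count of stained cells, germ cells were the great majority in every juvenile sample. The study also scored germ cell stages by cytology in a second aliquot of each juvenile sample, and those proportions were not used here. In such bulk samples, fewer cells of a type and less RNA per cell cannot be told apart.

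The synaptonemal complex is the protein ladder that joins homologous chromosomes along their length during meiotic prophase. SYCP2 and SYCP3 build the lateral elements on the chromosome axes as leptonema and zygonema proceed. SYCP1 forms the transverse filaments, which reach from each lateral element to the middle of the ladder. SYCE1, SYCE2, SYCE3 and TEX12 make the central element, where the filaments meet. In the mouse testis the complex is complete in pachynema and is taken apart in diplonema, and males that lack one of these proteins are sterile.

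Marker genes of the cell types that the samples could hold were read first. The summed level of 6 pachytene markers went from a median of 41.7 TPM at 8 dpp to 4657 TPM at 18 dpp, and was 10409 TPM in the adult pools. All 6 of these markers reached 3 TPM in adult cells and 5 of 6 at 18 dpp. Most of this sum was Hspa2 at 8 dpp, with a mean of 35.0 TPM. Ldhc made up most of it at 18 dpp, with a mean of 2396 TPM, and in the adult pools, with 6852 TPM. Sertoli cell markers were not absent. All 8 reached 3 TPM at every juvenile age, and their sum went from a median of 6795 TPM at 8 dpp (range 6577 to 7414) to 3366 TPM at 18 dpp (3218 to 4204) and 368 TPM in the adult pools. The sum of 6 spermatogonial markers went from 894 to 403 TPM over the same ages, and the sum of 5 peritubular markers went from a median of 1092 TPM to 1409 TPM by 14 dpp and was 586 TPM in the 18 dpp mice. The sum of 5 macrophage markers went from a median of 33.9 TPM at 8 dpp to 103 TPM at 16 dpp and was 60.3 TPM at 18 dpp and 3.67 TPM in the adult pools, where C1qa was at 0. The sums of 5 Leydig markers (166 to 465 TPM) and of 5 red blood cell markers (170.4 to 681 TPM) had no steady course over the juvenile ages. The sum of 6 spermatid markers was at most 17.0 TPM in the juvenile mice and 872 to 1189 TPM in the adult pools, and Prm1 and Prm2 were at 0 in all mice of 10 to 16 dpp. These sums move with age together with the genes below, and their part in the changes was not tested.

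Of the 7 genes, 6 rose between 8 and 18 dpp, but not in 1 step and not together. The lateral element genes Sycp2 and Sycp3, the transverse filament gene Sycp1 and the central element gene Syce3 rose 1.74-fold to 2.26-fold between 10 and 12 dpp. Syce1, in contrast, had its larger steps after 14 dpp, rising 1.81-fold to 16 dpp and 2.08-fold to 18 dpp. Before that its mean went from 46.4 TPM at 10 dpp to 68.5 TPM at 14 dpp. Syce2 stayed between 105 and 132 TPM on average at all 6 ages. Together the 7 genes made up 503 ± 91.0 TPM in the mice of 8 dpp (SD, n = 3), 453 ± 26.3 TPM in those of 10 dpp (SD, n = 5), 1494 ± 48.9 at 18 dpp (SD, n = 5) and 1555 ± 76.7 in the adult pools (SD, n = 4).

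**Figure D1:**
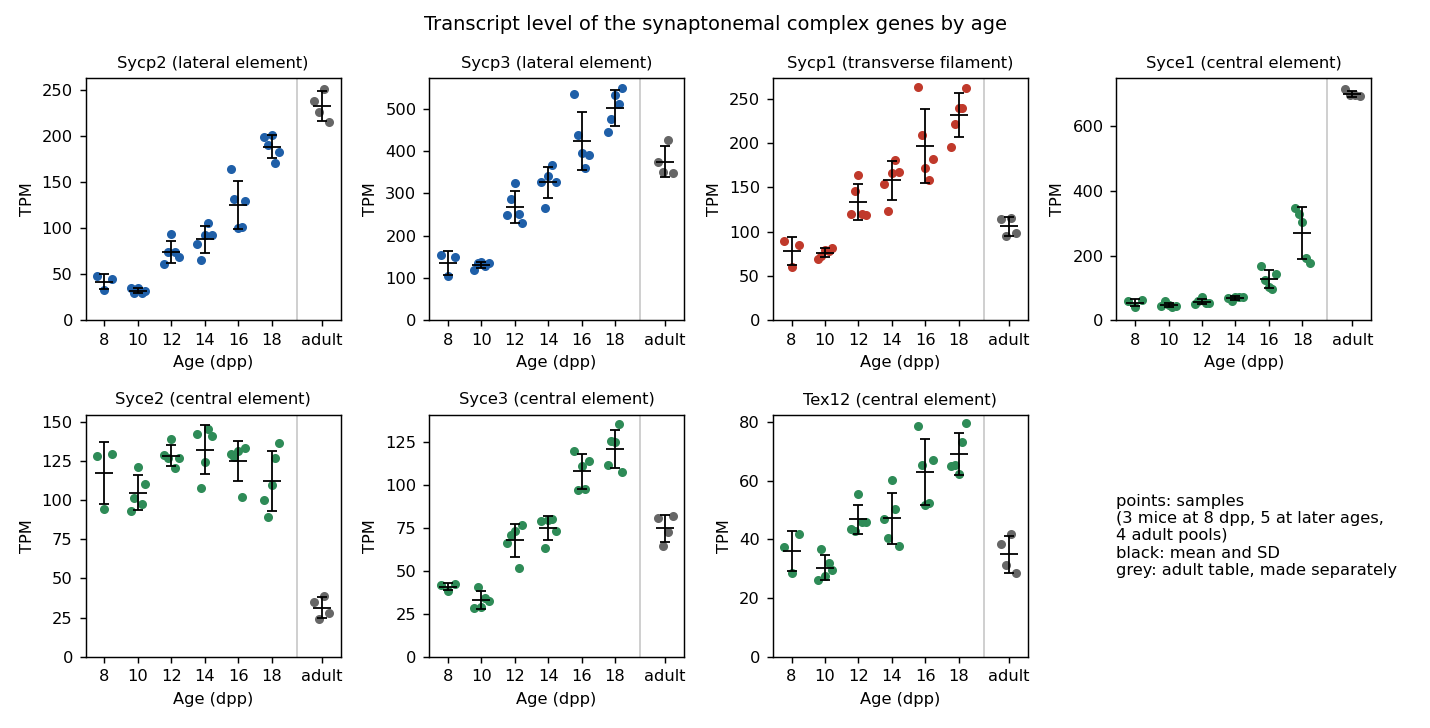
Level of each gene in TPM (vertical axis, from 0) against age in dpp, with 1 point per mouse or adult pool and the mean and SD in black. Of the 7, 6 genes climb with age, Syce1 mainly after 14 dpp and to a mean of 701 TPM in the adult pools, while Syce2 stays level and is lowest in the adult pools.

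The genes lie on 7 different chromosomes of GRCm38. Sycp2 spans chr2:178345293-178407685, Sycp1 chr3:102818499-102936100, Syce1 chr7:140777229-140787852, Tex12 chr9:50556819-50561325 and Syce3 chr15:89390174-89410503, all on the minus strand. Sycp3 spans chr10:88459569-88473236 and Syce2 chr8:84872111-84888221, both on the plus strand. Sycp3 overlaps Chpt1, Syce2 overlaps Gcdh and Tex12 overlaps Il18, and no strand-specific protocol is named in the sources used here, so reads in these overlaps may have been shared between the genes. Pseudogenes lie within the spans of Sycp1 and Syce1.

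The sequences just before the start sites of 4 of the genes are shown because these genes differ most, or are most alike, in their course. Sycp3 and Sycp1 followed each other most closely, Syce1 rose mainly after 14 dpp and Syce2 did not rise from 8 to 18 dpp. The stretches come from RefSeq on GRCm38.p6, run 5′ to 3′ on the gene's own strand and stop before the first annotated exon base. They are chr10:88459337-88459568 on the plus strand, chr3:102936101-102936350 on the minus strand, chr7:140787855-140788104 on the minus strand and chr8:84871861-84872110 on the plus strand. Capitals mark matches on either strand to the motifs named in the next paragraph.
Sycp3: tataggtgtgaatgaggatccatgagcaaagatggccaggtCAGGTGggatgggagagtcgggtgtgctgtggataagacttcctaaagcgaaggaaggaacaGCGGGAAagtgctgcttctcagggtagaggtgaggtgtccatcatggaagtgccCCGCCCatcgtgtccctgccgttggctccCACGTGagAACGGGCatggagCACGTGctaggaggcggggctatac
Sycp1: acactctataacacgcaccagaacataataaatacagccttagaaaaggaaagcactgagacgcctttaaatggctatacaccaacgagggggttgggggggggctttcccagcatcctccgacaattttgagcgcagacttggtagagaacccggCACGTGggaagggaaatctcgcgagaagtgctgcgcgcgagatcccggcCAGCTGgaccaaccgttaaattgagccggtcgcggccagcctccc
Syce1: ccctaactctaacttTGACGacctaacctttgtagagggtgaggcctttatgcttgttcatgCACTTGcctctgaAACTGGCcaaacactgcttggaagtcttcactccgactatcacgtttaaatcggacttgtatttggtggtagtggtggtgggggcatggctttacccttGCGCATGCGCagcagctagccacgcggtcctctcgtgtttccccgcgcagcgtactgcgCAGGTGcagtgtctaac
Syce2: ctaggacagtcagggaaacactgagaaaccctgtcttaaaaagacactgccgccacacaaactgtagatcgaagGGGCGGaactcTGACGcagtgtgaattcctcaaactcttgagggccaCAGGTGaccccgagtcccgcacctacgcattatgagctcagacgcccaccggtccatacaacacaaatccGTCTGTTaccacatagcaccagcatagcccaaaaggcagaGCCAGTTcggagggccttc

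The motifs searched were the E2F site TTCCCGC, the MYB site AACNGNC, the E-box CANNTG, the CRE core TGACGTCA and its shorter core TGACG, the NRF1 site GCGCATGC, the CCAAT box, the GC box GGGCGG, the TATA box TATAAA and the RFX site GTTGCC. They were searched on both strands in the window from 250 bases before to 50 bases after each RefSeq start. The 7 genes have 9 such windows, with 2 each for Syce2 and Syce3, against 32851 windows of all genes. The E2F site was found for Sycp3, Tex12 and, in its second window only, Syce2, and in 4.60% of all windows. The NRF1 site was found for Syce1 alone, as 2 overlapping matches from 76 to 67 bases before its start, and 2.71% of all windows hold it. An E-box was found for all 7 genes and is in 72.3% of all windows. Its form CACGTG, which was picked out after the sequences had been read and whose matches are also E-boxes, was found for Sycp3 at 2 places and for Sycp1, Tex12 and the second window of Syce2, and 7.15% of all windows hold it. The MYB site was found for 5 genes (32.8% of all windows) and the GC box for 4 (35.7%). The shorter CRE core was found for Syce1, Syce2 and Syce3 (20.8%), the CCAAT box for Sycp3 and Syce3 (37.4%), and the TATA box and the RFX site for Syce3 alone (13.6% and 12.5%). The full CRE core, present in 1.79% of all windows, was in none of the 9. These are matches of letters in a window and not tested sites.

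Sycp3, the coiled-coil protein that bundles into the fibres of the lateral element, had the highest level of the 7 at every juvenile age. Its 3 mice of 8 dpp were at 154, 103 and 150.0 TPM, and the 5 mice of 10 dpp at 119, 134, 136, 128 and 136. At 12 dpp it was at 249, 286, 325, 250.0 and 229 TPM, and at 14 dpp at 326, 266, 341, 368 and 327. At 16 dpp it was at 535, 439, 394, 361 and 390.3 TPM, and at 18 dpp at 444, 475, 532, 511 and 549. Every mouse of 12 dpp was above every mouse of 10 dpp, while the mice of 12, 14 and 16 dpp overlapped between neighbouring ages. The 4 adult pools were at 374, 349, 426 and 348 TPM, below all 18 dpp mice.

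Sycp2, the large axis protein that binds SYCP3, stood lower but rose further. Its levels were 47.7, 32.5 and 45.0 TPM at 8 dpp and 34.3, 29.4, 34.3, 29.5 and 31.9 TPM at 10 dpp. At 12 dpp they were 60.4, 74.3, 93.2, 74.2 and 68.4 TPM, at 14 dpp 82.9, 65.8, 92.5, 105 and 92.5 and at 16 dpp 164, 131, 99.7, 101 and 129. All 5 mice of 18 dpp, at 199, 189.8, 201, 170.4 and 182 TPM, lay above all mice of 16 dpp, and the adult pools, at 238, 226, 251 and 215, above these. Sycp2 was thus 1 of 2 members, with Syce1, that stood higher in the adult pools than at 18 dpp.

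Sycp1, whose protein is the transverse filament, ran close to Sycp3 at a lower level. It was at 89.4, 60.5 and 84.9 TPM at 8 dpp, at 69.3, 72.5, 79.8, 77.6 and 81.6 at 10 dpp and at 120.3, 146, 164, 119 and 119 at 12 dpp. The later values were 153, 123, 166, 181 and 167 TPM at 14 dpp, 263, 209.6, 172, 158 and 182 at 16 dpp and 195, 221, 239, 239 and 262 at 18 dpp. The 12 dpp mice did not overlap the 10 dpp mice, and from 12 to 18 dpp each age overlapped the next. The adult pools, at 114, 95.2, 115 and 98.1 TPM, lay below all mice of 12 to 18 dpp.

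Among the central element genes, Syce1 changed most. It encodes a coiled-coil protein of the central element that binds SYCE3. Its 8 dpp mice had 58.9, 41.0 and 61.2 TPM and its 10 dpp mice 44.1, 58.8, 45.2, 39.3 and 44.8. The 12 dpp mice had 49.2, 59.8, 71.5, 53.2 and 52.6 TPM and the 14 dpp mice 67.8, 59.3, 71.8, 70.8 and 72.9, with overlap between neighbouring ages. All 14 dpp mice were nonetheless above all 10 dpp mice. It was at 167, 125, 103, 97.0 and 142 TPM at 16 dpp and at 347, 329, 304, 191 and 178 at 18 dpp, so every 16 dpp mouse was above every 14 dpp mouse and every 18 dpp mouse above every 16 dpp mouse. The adult pools were at 715, 697, 698 and 696 TPM, which made Syce1 the highest of the 7 there. At 18 dpp mice 1, 2 and 3 stood apart from mice 4 and 5, and the pachytene marker sum did the same, with 4657 to 4829 TPM in the former and 2579 to 2708 TPM in the latter.

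Syce2, which pairs with TEX12 to form the fibres of the central element, was the second highest of the 7 at 8 and 10 dpp and the second lowest at 18 dpp. It was at 128, 94.3 and 129.5 TPM at 8 dpp, at 93.0, 102, 121, 97.5 and 110.3 at 10 dpp and at 129, 127, 139, 121 and 127 at 12 dpp. The values at 14 dpp were 142, 108, 125, 146 and 141 TPM, at 16 dpp 129.5, 127, 131, 102 and 133 and at 18 dpp 100.2, 89.3, 109.7, 127 and 136. Every pair of neighbouring ages overlapped, as did 8 and 18 dpp. In the adult pools it was at 34.7, 24.0, 38.8 and 28.1 TPM, below all 28 juvenile mice. At 18 dpp mice 4 and 5, the lowest for Syce1, had the highest Syce2 values.

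Syce3, a small central element protein that joins SYCP1 to the other central element proteins, had its first step at 12 dpp and a second one at 16 dpp. Its mice of 8 dpp lay at 38.3 to 42.3 TPM, those of 10 dpp at 28.4 to 40.8, of 12 dpp at 51.5 to 76.8, of 14 dpp at 63.1 to 79.8, of 16 dpp at 96.9 to 119.6 and of 18 dpp at 108 to 135. Tex12, the partner of Syce2 in the central element, was the lowest of the 7 at every juvenile age. Its mice of 8 dpp lay at 28.6 to 41.8 TPM, those of 10 dpp at 26.1 to 36.9, of 12 dpp at 43.0 to 55.6, of 14 dpp at 37.6 to 60.1, of 16 dpp at 51.8 to 78.7 and of 18 dpp at 62.3 to 79.7. In the adult pools Syce3 was at 64.7 to 81.7 TPM and Tex12 at 28.4 to 41.7, both below all 18 dpp mice.

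Single mice moved these levels in 1 direction for most of the genes. Mouse 2 of 8 dpp had the lowest value of its age for all 7 genes and also the lowest sum of the 4 germ cell markers, 641 TPM against 839 and 845 TPM in the other two. Mouse 2 of 14 dpp was the lowest of its age for 6 of the 7, with Tex12 as the exception. Mouse 1 of 16 dpp was the highest of its age for 6 of the 7, with Syce2 as the exception, and its germ cell marker sum was the highest of its age, 1755 TPM against 1255 to 1559 TPM.

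In the order of the mean levels, Sycp3 was followed by Syce2 and Sycp1 at 8 and 10 dpp. Syce3, Sycp2 and Tex12 were the lowest at both ages, and neighbours among them overlapped in range. At 12 dpp Sycp1 and Syce2 could not be told apart, with Sycp1 the higher in 2 of 5 mice. At 16 dpp Syce1, Sycp2 and Syce2 stood at 127, 125 and 125 TPM and overlapped. At 18 dpp Syce1 came next after Sycp3 and then Sycp1, and Syce1 was the higher of these in 3 of 5 mice. In the adult pools the order was Syce1, Sycp3, Sycp2, Sycp1, Syce3, Tex12 and Syce2, and of the 6 neighbouring pairs only Tex12 and Syce2 overlapped.

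The first comparison asked which genes changed at each step of 2 days of the first wave. It was made with limma on log2(TPM + 1) over all 20368 genes with Benjamini-Hochberg adjustment, and a gene was called at an adjusted p under 0.05. Some difference among the 6 ages was called for all 7 genes, but 77.6% of all genes were called as well. The weakest was Syce2 (adjusted p = 0.0476). The count was 6 with the replicate block, with no filter, with median-of-ratios factors and without a variance trend. It was also 6 when 1 mouse was left out, other than any mouse of 8 dpp, mouse 3 of 10 dpp, mouse 2 of 14 dpp, mouse 4 of 16 dpp and mice 4 and 5 of 18 dpp, without which it stayed at 7.

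From 8 to 10 dpp none of the 7 genes was called by limma, as for nearly all genes, of which 0.977% were called higher and 0.226% lower. At an unadjusted p under 0.05, 2 of the 7 were lower and 0 higher. These were Sycp2, with a log2 fold change of -0.36 (SE 0.15, adjusted p = 0.33), and Syce3, with -0.31 (SE 0.12, adjusted p = 0.247). The interval of the difference for Sycp3, -0.30 to 0.23 on the log2 scale, left room for a modest change either way.

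From 10 to 12 dpp 6 of the 7 genes rose and none fell, against 12.0% of all genes called higher and 9.39% called lower. Sycp2 rose most, 2.26-fold, with a log2 fold change of 1.18 (SE 0.13, adjusted p = 2.05e-07). Sycp3 rose 2.03-fold (1.02 ± 0.11, log2 ± SE) and Syce3 2.02-fold (1.01 ± 0.10). Sycp1 rose 1.74-fold (0.80 ± 0.13) and Tex12 1.53-fold (0.61 ± 0.13). These 5 genes had no overlap between the mice of both ages. How many of all genes lack overlap was not counted for this or any other pair of ages. Syce2 rose 1.23-fold, but its mice overlapped and its adjusted p, 0.0497, was just inside the threshold. Syce2 lost its call when any of the 10 mice other than mouse 3 of 10 dpp was left out (limma's adjusted p = 0.0531 to 0.132). Syce1 was not called, with a log2 fold change of 0.30 (SE 0.17, adjusted p = 0.237) and an interval of -0.05 to 0.65. Its rise, 1.23-fold, was as large as that of Syce2, whose SE was smaller, 0.11. The median log2 fold change was 0.80 over the 7 genes and 0.02 over all genes. Over the same step the germ cell marker sum went from a median of 670 to 1081 TPM, while the Sertoli marker sum was 6879 and then 6726 TPM. The sums hide unlike genes. Of the germ cell markers, Tex101 went from a mean of 211 to 532 TPM, Dazl from 278 to 347 and Ddx4 from 111 to 138, and Sohlh1 from 75.5 to 60.5. Most of the Sertoli sum was Clu, at a mean of 5497 TPM in the 12 dpp mice, while Gata1 went from a mean of 50.4 to 104 TPM, Amh from 336 to 207 and Wt1 from 384 to 251. Rhox5 ranged from 29.2 to 53.8 TPM at the first of these ages and from 77.1 to 124 TPM at the second.

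From 12 to 14 dpp none of the 7 genes was called by limma, and in all 0.157% of genes were called higher and 0.0147% lower. At an unadjusted p under 0.05, 1 of the 7, Sycp3, was higher, with a log2 fold change of 0.28 (SE 0.11, adjusted p = 0.372). By the sample titles, index sequences of 8 dpp libraries recur at 14 dpp, those of 10 dpp at 16 dpp and those of 12 dpp at 18 dpp. Libraries with the same index cannot have been read in 1 pool, but the labels name no pools, so the part of pooling was not tested in any comparison of ages, 8 with 18 dpp and the transcript usage included.

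From 14 to 16 dpp 5 of the 7 genes rose and none fell, against 12.7% of all genes called higher and 11.3% lower. Syce1 now led, with a 1.81-fold rise and a log2 fold change of 0.85 (SE 0.17, adjusted p = 0.000493). Syce3 rose 1.43-fold (0.52 ± 0.10, log2 ± SE), and these 2 genes had no overlap between the ages. Sycp2 (1.41-fold), Tex12 (1.33-fold) and Sycp3 (1.30-fold) also rose, with overlapping mice. Sycp1 was not called, with 0.30 (SE 0.13, adjusted p = 0.0828), nor was Syce2, with -0.08 (SE 0.11, adjusted p = 0.619). The count fell to 3, Sycp2, Syce1 and Syce3, without mouse 1 of 16 dpp and likewise without mouse 2 of 14 dpp, Tex12 also lost its call without mouse 7 of 14 dpp, and Sycp1 was called without mouse 4 of 16 dpp. With the mice numbered above 3 alone, 2 at each age, it was 1, Syce1. The split of all calls depended on the scaling, with 2594 higher and 2296 lower here, 2860 and 1454 with median-of-ratios factors, and 2407 and 3375 with quantile normalization.

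From 16 to 18 dpp Syce1 and Sycp2 rose, and none of the 7 fell, against 23.4% of all genes called higher and 30.6% lower. Syce1 rose 2.08-fold, with a log2 fold change of 1.06 (SE 0.17, adjusted p = 1.48e-05), and Sycp2 1.53-fold, with 0.61 (SE 0.13, adjusted p = 0.000333). The mice of both ages did not overlap for either gene. Sycp3 had a log2 fold change of 0.25 (SE 0.11, adjusted p = 0.0553) and Sycp1 of 0.25 (SE 0.13, adjusted p = 0.099). Without mouse 1 of 16 dpp both of these were called as well and the count was 4, and Sycp3 was called without mouse 1 of 18 dpp. The calls depended on the mice used. With the mice numbered above 3 alone, 2 at each age, Syce1 (log2 fold change 0.65, adjusted p = 0.0643) and Sycp2 (0.62, adjusted p = 0.0511) were not called by limma, and with mice 1 to 3 alone Syce2 fell by 0.38 (adjusted p = 0.0176). With median-of-ratios factors the count was 6, all but Syce2, and calls over all genes turned from 4775 higher and 6227 lower to 6193 higher and 3630 lower. The median log2 fold change of all genes was -0.11 here and 0.03 with those factors, so the rise of Syce1 and Sycp2 was called under both scalings, and the calls of Sycp3, Sycp1, Syce3 and Tex12 depended on the scaling.

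**Figure D2:**
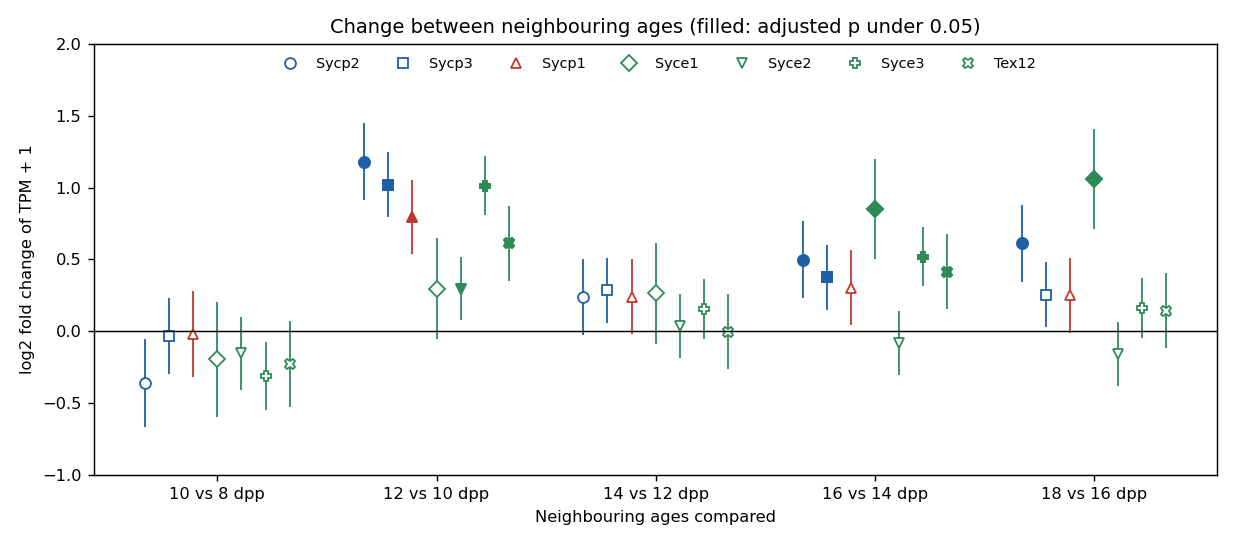
Log2 fold change of TPM + 1 (vertical axis) for each gene at each step of neighbouring ages, with 95% intervals and filled symbols where the adjusted p was under 0.05. From 10 to 12 dpp all genes but Syce1 have filled symbols, though Syce1 and Syce2 have the same change, 0.30. Syce1 has the largest change of the 7 at the last 2 steps.

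Over the whole span from 8 to 18 dpp, 6 of the 7 genes rose, against 31.8% of all genes called higher and 36.3% lower. The mice of both ages did not overlap for these 6, and the share of all genes without overlap was not counted. Syce1 rose 4.84-fold (2.27 ± 0.20, log2 ± SE), Sycp2 4.49-fold (2.17 ± 0.15) and Sycp3 3.73-fold (1.90 ± 0.13). Sycp1 rose 2.96-fold, Syce3 2.91-fold and Tex12 1.91-fold. Syce2 did not pass the test, with a log2 fold change of -0.06 (SE 0.12, adjusted p = 0.67), and its interval of -0.32 to 0.19 ended below the smallest rise of the others, 0.93 for Tex12. The median log2 fold change was 1.57 over the 7 genes and -0.09 over all genes.

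Ratios of the structural parts were formed within each mouse, so that they do not depend on the scaling of the library. The central element genes together, relative to the lateral element genes together, fell from 10 to 12 dpp, and no later step passed the test. The log2 ratio of their summed TPM averaged 0.49 ± 0.09 in the 8 dpp mice (SD, n = 3) and 0.40 ± 0.08 in the 10 dpp mice (SD, n = 5), or 1.41 and 1.32 on the linear scale. The 4 later ages had means of -0.18 ± 0.14, -0.35 ± 0.07, -0.37 ± 0.13 and -0.27 ± 0.20 in turn. The mice of 10 and 12 dpp did not overlap (two-sided exact permutation test, p = 0.0079, the smallest that 5 against 5 mice allow, adjusted over 10 tests p = 0.0397). The central element genes did not move alike over this step. Syce3 rose 2.02-fold, near Sycp3 at 2.03-fold, and Tex12 1.53-fold. Syce2 and Syce1 were each 1.23-fold higher, Syce1 without a call. The largest parts of the sums at 10 dpp were Syce2, at a mean of 105 TPM, and Sycp3, at 131 TPM. The step from 12 to 14 dpp, with a difference of -0.17, had an exact p of 0.0238 and an adjusted p of 0.0595. The transverse filament gene Sycp1 relative to the lateral element genes also fell from 10 to 12 dpp, from a log2 ratio of -1.10 ± 0.06 to -1.36 ± 0.05 without overlap (exact p = 0.0079, adjusted p = 0.0397). It was at -1.58 ± 0.09 at 18 dpp, and no other single step passed the adjusted threshold. Both calls were lost when any 1 mouse of 10 or 12 dpp was left out, where the smallest exact p for 4 against 5 mice is 0.0159. Both differences kept their sign.

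**Figure D3:**
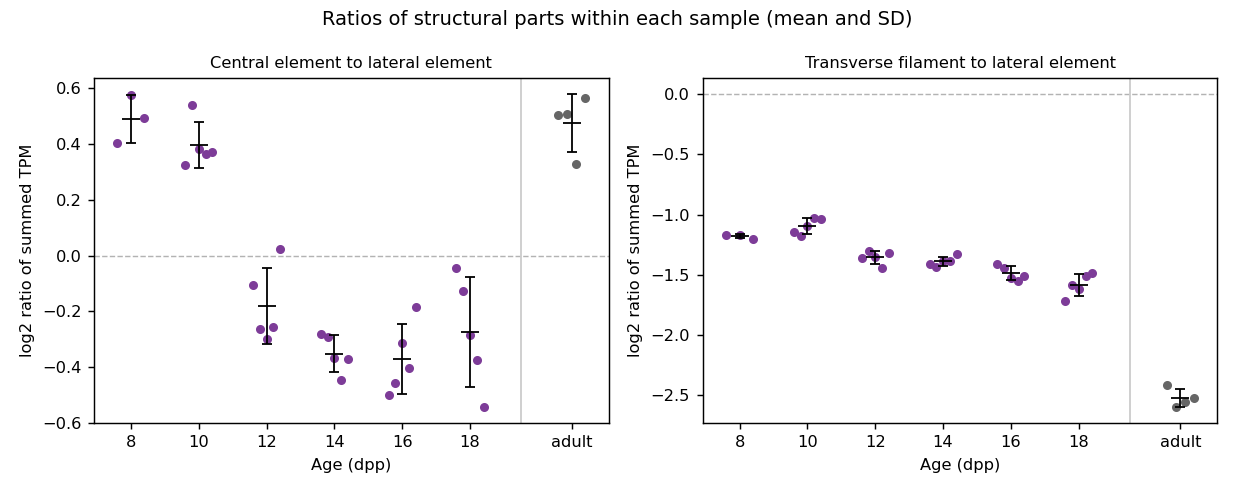
Log2 ratio of summed TPM (vertical axes) of the central element genes to the lateral element genes, and of Sycp1 to the lateral element genes, by age in dpp, with 1 point per mouse or adult pool and the mean and SD. The first ratio drops between 10 and 12 dpp and is back near its first level in the adult pools, and the second goes down to the adult pools.

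The make-up of the 7 genes' transcripts changed with these courses. Syce2 gave 23.3% ± 0.33 of their summed TPM in the 8 dpp mice (SD, n = 3), 7.53% ± 1.34 in the 18 dpp mice (SD, n = 5) and 2.01% ± 0.33 in the adult pools (SD, n = 4). Syce1 gave 10.6% ± 0.37 at 8 dpp, 7.36% ± 0.32 at 12 dpp, 18.0% ± 5.26 at 18 dpp and 45.2% ± 2.02 in the adult pools. The share of Sycp3 lay between 26.8% and 36.4% at the juvenile ages and was 24.0% ± 1.27 in the adult pools. The share of Sycp1 kept between 15.5% and 17.6% from 8 to 18 dpp and was 6.79% ± 0.37 in the adult pools.

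**Figure D4:**
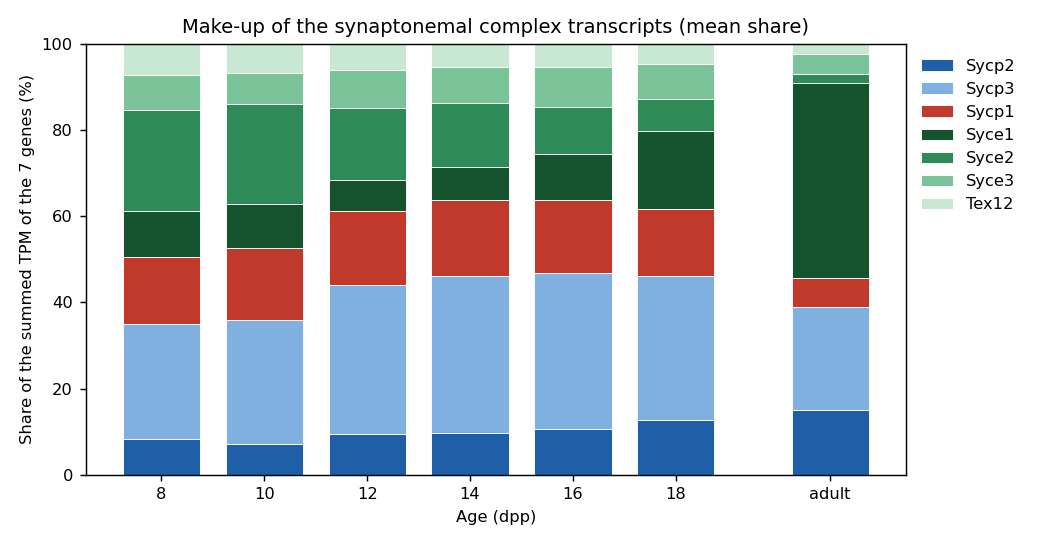
Mean share of each gene in the summed TPM of the 7 genes (vertical axis, %) by age in dpp and in the adult pools. Syce2 shrinks from 23.3% at 8 dpp to 2.01% in the adult pools, while Syce1 grows to 45.2%.

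The adult pools were given in a table of their own, so their levels are set beside those of 18 dpp without a test. For none of the 7 genes did the adult pools overlap the 18 dpp mice. How many of all genes lack such overlap was not counted, so whether this is particular to the 7 genes was not tested. Syce1 was 2.60 times and Sycp2 1.23 times as high in the adult pools. Syce2 was at 0.28 times, Sycp1 at 0.46 times, Tex12 at 0.51 times, Syce3 at 0.62 times and Sycp3 at 0.75 times their 18 dpp level. The central element to lateral element ratio was 0.48 ± 0.10 in the adult pools (log2, SD, n = 4), near the values of 8 and 10 dpp, although Syce1 and not Syce2 was now its largest part. Relative to Actb, which was at 871 TPM at 18 dpp and 199 TPM in the adult pools, all 7 genes were higher in the adult pools, with Syce1 the highest and Syce2 the least so.

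Across the 28 mice, which share the course of age and the library scale, log2(TPM + 1) of Sycp1 and Sycp3 had a Pearson r of 0.994, and 0.968 once the mean of each age had been subtracted. Sycp2 and Sycp3 had an r of 0.974, and 0.785 within ages. Syce1 had an r of 0.817 with each of Sycp1 and Sycp3, 0.822 with Tex12, 0.83 with Syce3 and 0.894 with Sycp2. Syce2 was the least like the others, with an r of -0.05 with Syce1 and 0.268 to 0.392 with the rest. With the pachytene marker sum, Sycp2 had an r of 0.956 and Syce1 of 0.950, the other genes but Syce2 had 0.888 to 0.933, and Syce2 had 0.081. Within ages these values were 0.851 for Syce1, 0.704 for Sycp2, 0.41 to 0.531 for the others but Syce2, and 0.099 for Syce2. With the germ cell marker sum, r within ages was 0.922 for Sycp3, 0.889 for Sycp1, 0.691 for Syce2 and 0.682 for Sycp2. It was 0.619 for Tex12, 0.482 for Syce3 and 0.392 for Syce1. Syce2 also had an r of 0.553 within ages with the spermatogonial sum. Syce1 had an r of -0.944 with the Sertoli marker sum (-0.729 within ages) and of -0.929 with the spermatogonial sum (-0.536 within ages). These are descriptions of 28 points in 6 age groups.

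**Figure D5:**
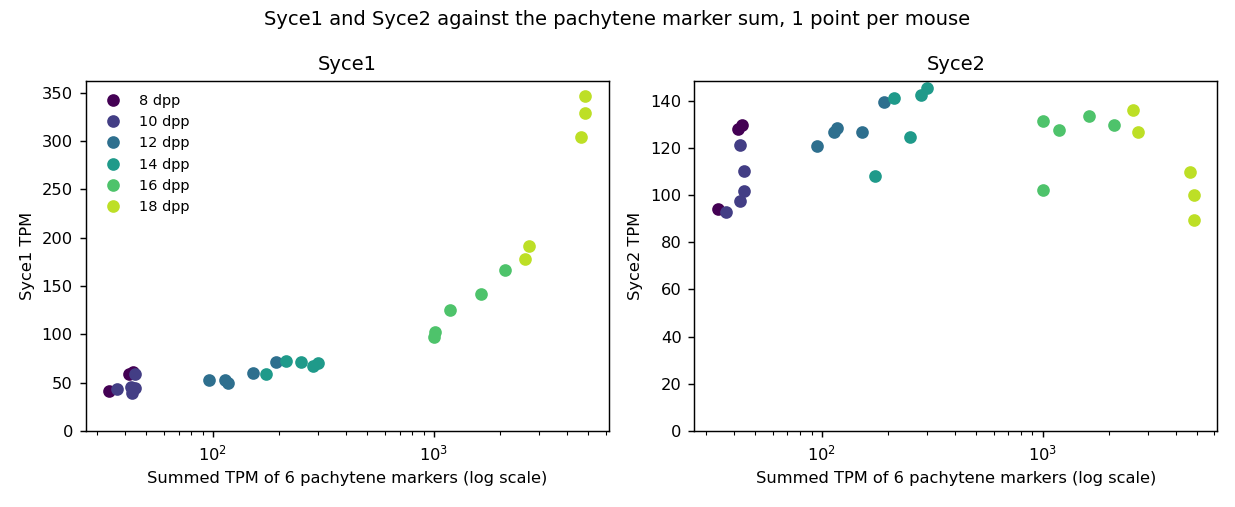
Level of Syce1 and of Syce2 in TPM (vertical axes, from 0) against the summed TPM of 6 pachytene markers (horizontal axis, log scale), with 1 point per mouse coloured by age. Syce1 lies higher where the marker sum is higher, also among the mice of 16 dpp and those of 18 dpp, and Syce2 stays between 89.3 and 145.5 TPM.

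Among 14889 other genes with a symbol, those most like each member over the 28 mice were listed by r, as a description. Hormad1, which encodes a HORMA-domain protein of the chromosome axis, was the most like Sycp3 (r = 0.996) and the most like Sycp1 (0.993). The next were Hfm1 (0.989), a helicase of crossover formation, for Sycp3 and the gene model Gm49340 (0.984) for Sycp1. Sox30 (0.986), a transcription factor gene, and Spo11 (0.984), which encodes the enzyme that makes meiotic DNA breaks, were the most like Sycp2. For Syce1 they were Mum1 (0.995) and Mael (0.993), a piRNA pathway gene, and 1092 genes had an r over 0.95 with it. For Syce3 they were Tesmin (0.981) and Ly6k (0.978). Tex12 and Syce2 had no gene over 0.95, with Stk31 (0.936) and Tdrkh (0.935) as the nearest to Tex12, and Ugt8a (0.853) and Rnaset2b (0.847) the nearest to Syce2. Rnaset2b has a near-identical copy with which it can share reads, so its level is uncertain.

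The most abundant transcript of each gene was the same at every juvenile age. Sycp1, Syce1 and Tex12 had 1 transcript in the files, and for Syce3 the second one was listed at 0 in every mouse. The full-length Sycp2-201 of 44 exons held 92.2% ± 4.77 of the Sycp2 TPM in the 8 mice of 8 and 10 dpp and 94.0% ± 1.85 in the 10 mice of 16 and 18 dpp (SD), and the processed transcript Sycp2-202 held most of the rest. Sycp3-201 and Sycp3-203, both protein coding, held 80.6% and 18.9% at the early ages and 82.9% and 16.5% at the late ages. Syce2 was spread over 4 transcripts. Its protein-coding Syce2-204 held 54.5% ± 5.12 and then 60.3% ± 2.99, and Syce2-201, annotated for nonsense-mediated decay, 20.6% ± 2.47 and then 15.1% ± 3.04. The protein-coding Syce2-202 held 15.5% ± 2.52 and then 16.5% ± 2.44. Its order with Syce2-201 was not steady from age to age and was not tested. At 14 dpp Syce2-201 held 17.6% and Syce2-202 14.2% on average, and at 18 dpp they held 15.3% and 15.9%. Of the 11 member transcripts that could be tested by limma on these percentages, none had both an adjusted p under 0.05 and a change of 20 points, against 1.12% of all 46254 transcripts tested. At an unadjusted p under 0.05 there were 2, both of Syce2, and Syce2-201, with -5.54 points ± 1.38 (SE, adjusted p = 0.0208), was the 1 with an adjusted p under 0.05. RSEM divides reads that transcripts share, so these percentages are estimates.

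Of 18 other genes of the complex and the chromosome axis, 17 were tested. Sycp2l, a paralog of Sycp2, was below the level of 3 TPM, with a mean of at most 0.56 TPM at any age. From 10 to 12 dpp 8 of the 17 rose and none fell by limma's adjusted p, with 12.0% and 9.39% of all genes called, and 11 of the 17 were higher and 0 lower at an unadjusted p under 0.05. They were the cohesin subunits Rec8, Rad21l and Smc1b, the HORMA-domain genes Hormad1 and Hormad2, Ccdc36, and the crossover genes Msh4 and Msh5. From 14 to 16 dpp 3 of the 17 rose, Hormad1, Msh4 and Syce1l, with 12.7% of all genes called higher. From 16 to 18 dpp Hormad1, Stag3 and Syce1l rose, with 23.4% of all genes called higher, and 6 of the 17, Rec8, Rad21l, Smc3, Trip13, Fkbp6 and Tex11, fell, with 30.6% called lower. From 8 to 18 dpp 9 of the 17 rose, with 31.8% of all genes called higher, and 5 fell, Rec8, Smc3, Trip13, Fkbp6 and Tex11, with 36.3% called lower. The counts of 3 and of those that fell are near these shares. Their median log2 fold change over this span was 0.49. The largest rise was that of Msh4, which encodes a MutS homolog of crossover formation, from 1.40 ± 0.37 TPM (SD, n = 3) to 16.4 ± 1.80 TPM (SD, n = 5), or on the log2 scale 2.86 (SE 0.16, adjusted p = 1.53e-14). The largest fall was that of Smc3, the cohesin subunit shared with mitotic cells, from 96.8 ± 9.12 to 57.6 ± 8.88 TPM with -0.75 (SE 0.09, adjusted p = 2.17e-08). Syce1l, the paralog of Syce1, had its steps at the same ages as Syce1, from 3.47 ± 1.88 TPM at 14 dpp to 28.9 ± 13.1 TPM at 18 dpp (SD, n = 5) and 96.5 ± 8.58 TPM in the adult pools (SD, n = 4).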

How the data were processed

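Poly(A) RNA of 28 juvenile mice and 4 adult pools was sequenced as paired reads of 100 bases. According to the submitters' processing notes the authors aligned reads with Bowtie 1.0.0 and estimated abundance with RSEM 1.2.8 on mm10, and their methods name Ensembl 75 and NONCODE 4 transcripts. The deposited values are TPM per transcript for the juvenile mice and per gene for the adult pools. The deposited gene table of the juvenile mice has its own scale, a score equal to the exponential of log2(TPM + 1) less 1, and was converted back; 20288 of its 20368 genes then matched the summed transcripts within 0.2 TPM. Read counts cannot be had from TPM, so the depth of each library is unknown and no counting interval is given. RSEM's division of shared reads can move values of overlapping or copied genes.

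Genes in that table, with at least 3 TPM in at least 1 mouse, were tested with limma 3.58.1 (R 4.3.3) on log2(TPM + 1), with the 6 ages in 1 model, a trended prior variance and Benjamini-Hochberg adjustment over all 20368 genes. Fold changes on this scale understate the change of low genes. Transcript usage was tested in the same way on percentages of the gene's TPM, for transcripts of at least 1 TPM in genes of at least 3 TPM, in the 8 mice of 8 and 10 dpp against the 10 mice of 16 and 18 dpp, with a change of 20 points required. Ratios of structural parts were compared by two-sided exact permutation tests (scipy 1.17.1), adjusted over 10 tests. The scripts were tested on simulated data. The members and the lists of other complex genes and cell markers were chosen with earlier results of these data known. Named were all members, the other complex genes with the largest rise and fall and those of each count up to 5, and the 2 genes most like each member; the other complex genes of longer lists, and Syce1l, were named after their values had been seen. Mice of an age are separate animals, and the adult samples separate pools. The numbers that mice of different ages share were treated as names only. Other pseudocounts, filters, scalings, mouse subsets and a replicate block were tried as alternatives.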

Additional observations from a re-analysis of the deposited data

Results flagged for a closer look

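Of 42 sets of values tested for a single sample far from the others, 1 for each gene in each group of 4 or 5 samples, 3 held one by Dixon's criterion, about the 1 in 20 that chance flags. Adult pool 1 had 715.05 TPM of Syce1, above the other three at 696 to 698 TPM. Mouse 4 of 16 dpp had 102.17 TPM of Syce2, the lowest of its age, where the others were at 127 to 133 TPM. Mouse 3 of 12 dpp had 55.56 TPM of Tex12, the highest of its age. Among the 10 sets of part ratios, mouse 2 of 10 dpp stood apart with a central element to lateral element log2 ratio of 0.542.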

How the results depend on the processing

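All 19 called member fold changes of 42 kept their sign in every alternative, and 11 also kept their call. Those that lost it in some alternative are the calls of Syce2 and Tex12 from 10 to 12 dpp, of Sycp2, Sycp3, Syce3 and Tex12 from 14 to 16 dpp, and of Syce1 and Sycp2 from 16 to 18 dpp. The cause was not tested. For Syce2 from 10 to 12 dpp the adjusted p was 0.134 with no filter, 0.0706 with quantile normalization, 0.0665 without a variance trend, 0.0814 with mice 1 to 3 alone and 0.269 with the mice numbered above 3 alone, a choice made after seeing the data. From 14 to 16 dpp 1 member was called with those later mice, and 3 to 6 when 1 mouse was left out. From 16 to 18 dpp 6 were called with median-of-ratios factors, and 2 to 4 when 1 mouse was left out. For any difference among ages 6 to 7 were called when 1 mouse was left out. The ratio tests gave 0 calls with mice 1 to 3 alone, where 0.1 is the smallest exact p, and 0 to 2 when 1 mouse was left out. Relative to Actb the adult to 18 dpp log2 ratios were 2.408 for Sycp2, 1.697 for Sycp3, 0.997 for Sycp1, 3.447 for Syce1, 0.299 for Syce2, 1.417 for Syce3 and 1.145 for Tex12. The ratios of Sycp3, Sycp1, Syce2, Syce3 and Tex12 thus turned sign, since in TPM these genes were lower in the adult pools.

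Differences between juvenile ages that turned sign had not been called. With the replicate block the log2 fold change from 8 to 10 dpp was 0.002 for Sycp3 and 0.004 for Sycp1, and leaving out 1 mouse gave -0.218 to 0.067 and -0.195 to 0.083. From 12 to 14 dpp Syce2 was at -0.032 with the block, -0.082 with mice 1 to 3 and -0.002 to 0.105 with 1 mouse left out, and Tex12 at 0.074, 0.045 and -0.094 to 0.072. With mice 1 to 3 alone Syce2 from 14 to 16 dpp was at 0.060 and Tex12 from 16 to 18 dpp at -0.003. With the mice numbered above 3 alone Sycp1 from 14 to 16 dpp was at -0.038 and Syce2 from 16 to 18 dpp at 0.169. With median-of-ratios factors Syce2 was at 0.009 from 16 to 18 dpp and 0.113 from 8 to 18 dpp, where leaving out 1 mouse gave -0.212 to 0.015. The central to lateral ratio difference from 14 to 16 dpp was -0.067 to 0.012 with 1 mouse left out, and from 16 to 18 dpp -0.132 with a mean of log2 values.

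With the replicate block the members called were 0, 6, 0, 4 and 2 over the 5 steps in turn, 6 from 8 to 18 dpp, 6 for any difference and 0 for transcript usage. The correlations of same-numbered deviations ran from -0.248 to 0.253, with medians of -0.027 to 0.027 for the single numbers. Whether mice of equal number share a batch was not tested. All calls from 12 to 14 dpp were 32 higher and 3 lower, against 13 and 3 with median-of-ratios factors. The median log2 fold change of all genes from 8 to 18 dpp was -0.09, 0.05 with those factors and -0.26 with quantile normalization. TPM without counts sets no floor for low values.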
